A study of Rattus norvegicus with 4 samples.

Results

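The 42 genes described here encode the machinery of clathrin-mediated endocytosis and of the endosomal sorting that follows it, and were listed by gene symbol. A probe set, the group of array probes that reads 1 transcript, was counted to them where the platform annotation gave it exactly 1 gene symbol and that symbol was on the list. There were 69 such probe sets for 39 of the 42 genes, among 20826 probe sets with a single symbol. Picalm, Ap2a1 and Hspa8 had none, and the probe set annotated to Hspa8 also named another gene. A probe set was tested if 2 or more of the 4 arrays gave it a signal of 100 or above. This kept 55 member probe sets, at least 1 for each of the 39 genes, out of 14791 tested on the whole array. The other 14 member probe sets had signals of 1.4 to 84 on all arrays. Of the 39 genes, 28 had 1 tested probe set and 11 had several.

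In clathrin-mediated endocytosis, adaptor proteins collect cargo at the plasma membrane and recruit clathrin, which polymerises into a coat around a growing pit. Curved BAR proteins bend the neck of the pit, dynamin cuts it, and synaptojanin and auxilin strip the coat from the free vesicle. At hippocampal synapses this route retrieves synaptic vesicle membrane after transmitter release and takes up glutamate receptors, and the retromer with its sorting nexins returns receptors from endosomes to the surface.

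RNA came from the hippocampus of male Wistar rats, 16 months old at dissection. The stressed rats had been exposed for 4 weeks, from an age of 15 months, to chronic unpredictable mild stress, a changing sequence of mild daily stressors used as a depression model. The nonstressed controls were of the same age and stayed in standard housing. Each group had 2 arrays of the Rat Genome 230 2.0 type, and each array was hybridised with RNA pooled from 3 rats. The sources used here do not say if 1 rat could enter both pools of its group, so the p-values measure only the spread between these arrays, which may be technical.

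The arrays were alike in brightness, with median signals of 79.3 to 82.1 and 46.4% to 46.8% of probe sets at 100 or more. All 6 genes fixed as markers of hippocampal pyramidal and granule cells were measured, and none was below 100 on all arrays. Their summed signal was 10010 to 10170 on the stressed arrays and 9618 to 9900 on the control arrays. The summed signal of the 5 pan-neuronal markers was 22800 to 22830 against 21010 to 21290. Sums also stood apart for 6 astrocyte markers (45090 to 46420 against 39820 to 41140), 5 microglial markers (3078 to 3115 against 3292 to 3368), 4 endothelial markers (3315 to 3380 against 2877 to 2913) and 6 oligodendrocyte markers (34230 to 35070 against 35120 to 37430). Each marker was called at its brightest tested probe set. Neurons had 1 marker that rose and 1 that fell, hippocampal pyramidal and granule cells 1 and 0, and astrocytes 1 and 0. Microglia had 1 and 2, endothelium 2 and 0 and oligodendrocytes 1 and 1. At other tested probe sets 1 fell for each of Stmn2, Aqp4, Slc1a3, Mbp, Mobp and P2ry12, and 1 rose for each of Cnp and Camk2a. Zbtb20 had 1 that rose and 2 that fell. Choroid plexus, the epithelium that makes cerebrospinal fluid, had the largest median log2 fold change of these lists, 0.79. Of its 6 tested markers 4 rose and none fell. Control signals were below 100 for Kcne2 and Cldn2 among the rises, which were tested through their stressed arrays. The sums were 13140 to 14290 against 10130 to 12020. They came mostly from Ttr, which was not called (limma adjusted p = 0.0579). Signals stayed below 100 on all arrays for 1 marker each of choroid plexus (Kl), microglia (Cx3cr1) and endothelium (Pecam1). The part of these cell types in the results below was not tested. In whole tissue, fewer cells of a type and less RNA per cell cannot be told apart.

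Stressed and control arrays differed for a minority of the endocytosis genes. Of the 55 tested probe sets, 10 were higher in stressed rats and 4 were lower at a Benjamini-Hochberg adjusted p under 0.05 in limma, fitted to log2 signals of all tested probe sets. These were 18.2% and 7.27% of the member probe sets. Over all tested probe sets 12% rose and 11.8% fell by the same rule. The rises came from 10 genes: the coat and adaptor genes Cltc, Ap2a2, Ap1b1, Snap91, Epn1 and Epn2, the scission gene Dnm2, the lipid enzyme genes Synj1 and Pik3c2b, and 1 of 4 probe sets of Snx27. The falls came from 3 genes, Pacsin1, Pik3c2a and, by 2 of its probe sets, Snx27. When each gene was counted once at its brightest tested probe set, 10 genes rose (25.6%) and 2 fell (5.13%), against 11.1% and 10.2% of all 9264 tested genes. The rises count Snx27, of which 2 other probe sets fell. They also count Dnm2 and Pik3c2b, which passed the filter through their stressed arrays, with control signals below 100. Calls over the whole array numbered 1771 rises and 1744 falls. Centring each array on its median gave 10 member probe sets higher and 7 lower in place of 10 and 4. On the whole array it gave 1552 rises and 1906 falls. A minimum signal of 200, which left out Dnm2 and Pik3c2b, gave 8 and 4, against 1654 and 1533 on the array. Several other limma settings lowered the array counts and the members' rises, but not the members' falls. Quantile normalization raised the array counts to 1823 and 1790, with 11 higher and 4 lower member probe sets. Dropping control replicate 1 gave 4 higher and 4 lower member probe sets against 817 and 910 on the array, dropping control replicate 2 gave 5 and 5 against 650 and 791, and limma without an intensity trend gave 3 and 4 against 1000 and 1147. The methods' t-test on log2 signals called no member after adjustment, and 4 higher and 14 lower probe sets on the array. At an unadjusted p under 0.05 it gave 7 higher and 4 lower member probe sets.

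The size of the changes was close to that of the array as a whole. The median log2 fold change, stressed minus control, was 0.07 over the members and 0.02 over all tested probe sets, and the median absolute change was 0.17 against 0.15. The groups did not overlap for 36 of the 55 member probe sets (65.5%), 23 with the stressed arrays higher and 13 with them lower, while 64.4% of all tested probe sets did not overlap. At the thresholds of the study, a change of at least 2-fold with an unadjusted p under 0.05, here applied to limma's p, 1 member probe set was higher (Dnm2) and 1 was lower (Snx27). The count of higher ones was 0 with the methods' t-test and at a minimum signal of 200, and an offset of 50 left 0 higher and 0 lower. On the whole array these shares were 0.216% and 1.38%. The 41 member probe sets that missed the adjusted threshold had log2 fold changes of -0.35 to 0.30, of which 23 were above 0 and 18 below.

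**Figure D1:**
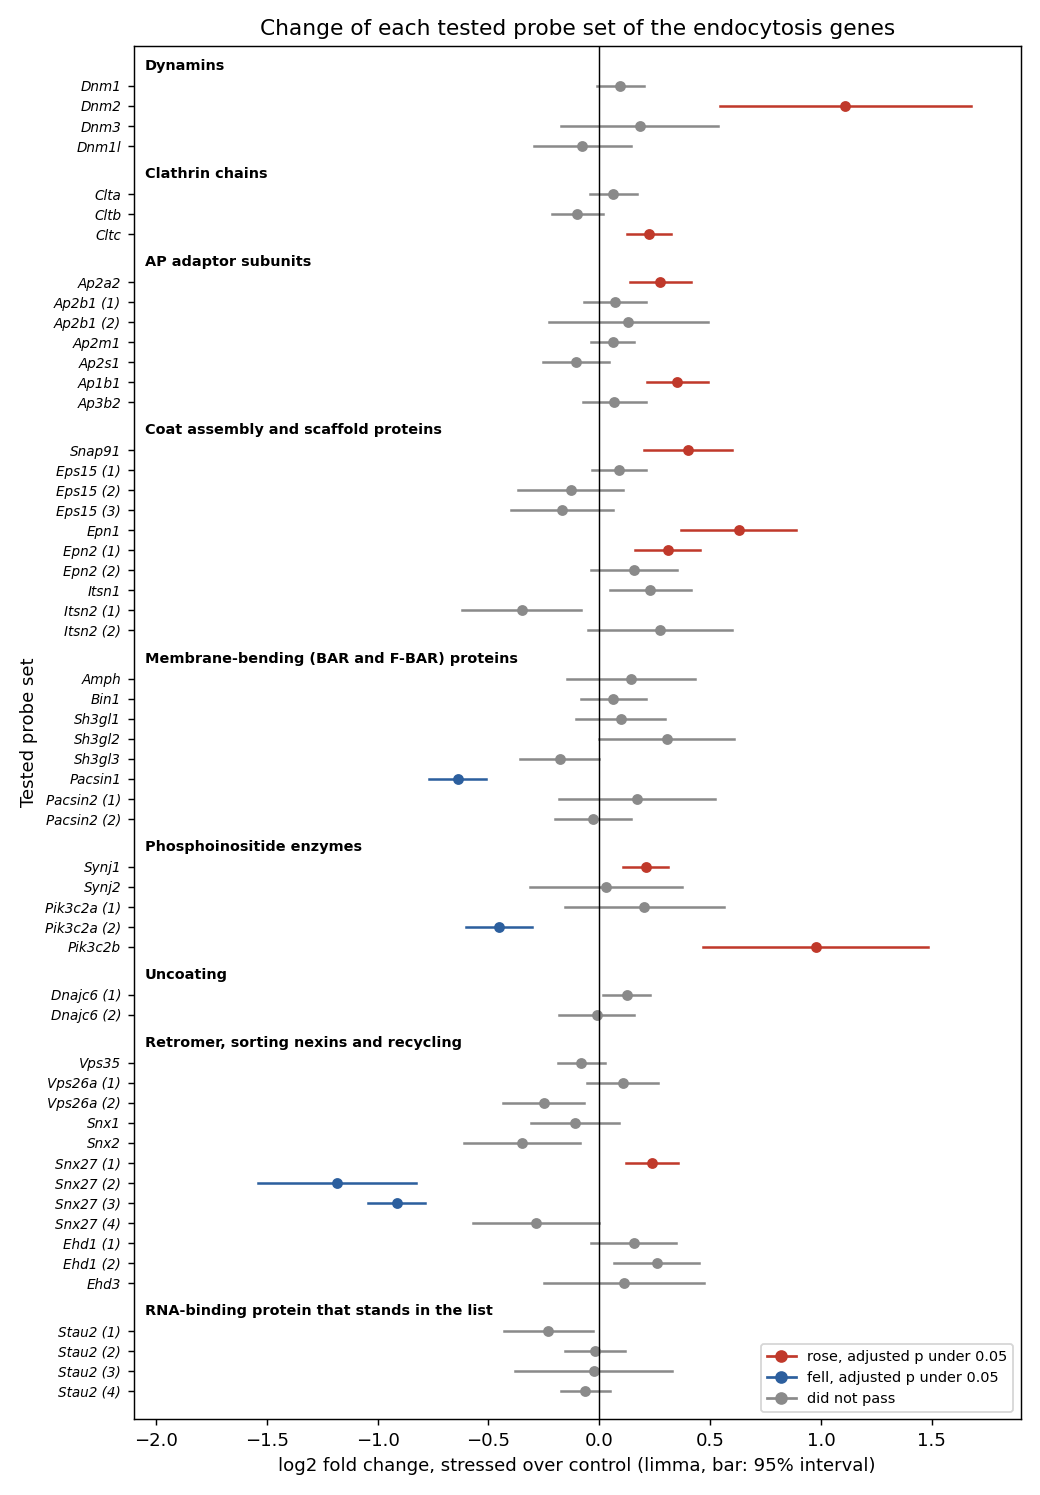
Log2 fold change, stressed minus control, of the 55 tested probe sets of endocytosis genes, grouped by role, with 95% confidence intervals from limma. Most values lie within 0.35 of 0, and the rises of Dnm2 and Pik3c2b and the falls of 2 Snx27 probe sets lie farthest from it.

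Clathrin itself is built from a heavy chain, which forms the legs of the triskelion, and light chains, which regulate its assembly. The probe set of Cltc, the heavy chain gene, gave signals of 5306 and 5252 on the stressed arrays and 4580 and 4453 on the control arrays. Both stressed arrays were above both control arrays, a log2 fold change of 0.23 (SE 0.04, limma adjusted p = 0.00898). Without stressed replicate 1 the adjusted p was 0.05 and without control replicate 2 it was 0.0719. The light chain genes did not pass: Clta had a log2 fold change of 0.06 (95% interval -0.04 to 0.17) and Cltb one of -0.10 (-0.22 to 0.02).

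Adaptor complexes link cargo and lipids to clathrin, AP-2 at the plasma membrane and AP-1 at the trans-Golgi network and endosomes. Of the 6 listed adaptor subunit genes that were measured 2 rose and none fell, against 11.1% and 10.2% of all tested genes. Among the adaptor subunits outside the list Ap3b1 rose. Ap1s1, Ap1s2 and Ap3s1 fell, each on 1 of 2 tested probe sets. Ap1b1, the large beta subunit of AP-1, had signals of 880.2 and 840.3 in stressed rats and 687.1 and 660.3 in controls. The groups were well apart, at a log2 fold change of 0.35 (SE 0.06, limma adjusted p = 0.00518), and the call held whichever array was left out. Ap2a2, an alpha subunit of AP-2, had signals of 743.7 and 742.0 against 599.7 and 628.8. It rose by 0.27 on the log2 scale (SE 0.06, limma adjusted p = 0.0143). Dropping control replicate 1 or 2 raised the adjusted p to 0.0817 or 0.0514. The other AP-2 subunit genes, Ap2b1 (2 probe sets), Ap2m1 and Ap2s1, and Ap3b2, the neuronal beta subunit of AP-3, had log2 fold changes of -0.11 to 0.13 and did not pass.

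Among proteins that help the coat assemble, 3 of 6 measured genes rose and none fell, against 11.1% and 10.2% of all tested genes. Epn1 encodes epsin 1, which inserts into the membrane and binds ubiquitinated cargo, AP-2 and clathrin. Its signals were 368.7 and 403.2 on the stressed arrays and 227.0 and 274.2 on the control arrays. The lowest stressed value was well above the highest control value, and the log2 fold change was 0.63 (SE 0.11, limma adjusted p = 0.00711), or 1.55-fold. The call held without any 1 array.

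Its paralog Epn2 was read by 2 tested probe sets. The brighter one had signals of 1900 and 1888 against 1440 and 1625, a rise of 0.31 (SE 0.06, limma adjusted p = 0.0117), and the adjusted p was 0.0595 without control replicate 1. The other had signals of 799.0 and 897.1 against 811.2 and 709.8. There the groups overlapped and the log2 fold change of 0.16 did not pass (limma adjusted p = 0.21).

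Snap91 encodes AP180, a neuronal assembly protein that sets the size of synaptic vesicles as they are retrieved. Signals were 4075 and 3665 in stressed rats and 2681 and 3192 in controls. Both groups were spread, and the log2 fold change was 0.40 (SE 0.09, limma adjusted p = 0.0138). It missed the threshold without stressed replicate 1 (adjusted p = 0.0507) and without control replicate 1 (0.0734). Among the scaffold genes that did not pass, the 3 probe sets of Eps15 had log2 fold changes of -0.17 to 0.09. Intersectin genes, which tie the coat to dynamin and to actin, gave 0.23 for Itsn1 (limma adjusted p = 0.0696) and, for Itsn2, -0.35 and 0.27 at its pair of probe sets (0.0638 and 0.195).

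**Figure D2:**
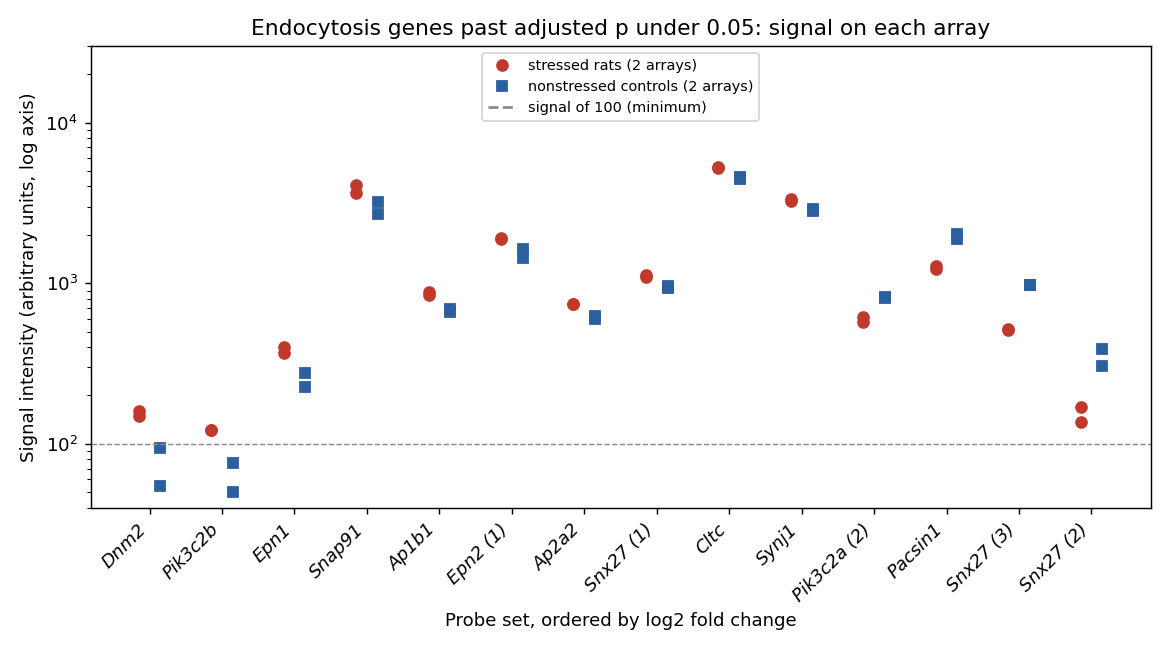
Signal intensity (log axis, arbitrary units) on each array for the 14 member probe sets past a limma adjusted p under 0.05, ordered by log2 fold change, with stressed arrays as circles and control arrays as squares. A number in brackets tells apart the tested probe sets of 1 gene. The groups did not overlap for any of the 14, which were picked on these same arrays, nor for 64.4% of all tested probe sets. The control signals of Dnm2 and Pik3c2b lie below 100.

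Dynamins are the GTPases that cut the neck of the vesicle. Dnm2, the widely expressed form, had signals of 160.3 and 150.1 on the stressed arrays and 94.1 and 54.9 on the control arrays. It was the largest rise among the members, a log2 fold change of 1.11 (SE 0.24, limma adjusted p = 0.0155), or 2.16-fold. Both control signals were below 100, so this probe set passed the filter through its stressed arrays. The 2 control arrays also lay far apart, and without control replicate 2 the log2 fold change was 0.72 and the adjusted p 0.0527. Dnm1, the neuronal dynamin of synaptic vesicle retrieval, was a bright probe set with 7529 and 7290 against 6817 and 7052. Its groups did not overlap, but the difference of 0.10 (95% interval -0.01 to 0.20) did not pass in limma (adjusted p = 0.166). Dnm3, a dynamin of dendritic spines and terminals, gave 0.18 and Dnm1l, which divides mitochondria, -0.08, and neither passed. The control signals of Dnm3, 91.9 and 97.8, were also below 100, so it too was tested through its stressed arrays.

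Of 7 measured genes for membrane-bending proteins none rose and 1 fell, against 11.1% and 10.2% of all tested genes. The fall was that of Pacsin1. It encodes syndapin I, a neuronal F-BAR protein that binds dynamin I and N-WASP and acts in bulk retrieval of synaptic membrane. Its signals were 1287 and 1222 on the stressed arrays and 1883 and 2023 on the control arrays. The stressed values were lower by a wide margin, at a log2 fold change of -0.64 (SE 0.06, limma adjusted p = 0.000295), so that controls were 1.56-fold higher. The call held without any 1 array. Its paralog Pacsin2 gave -0.03 and 0.17 at its 2 tested probe sets. The amphiphysin genes Amph and Bin1 gave 0.14 and 0.06, and the endophilin genes, which recruit synaptojanin, gave 0.10 for Sh3gl1, 0.30 for Sh3gl2 and -0.18 for Sh3gl3. None of these passed.

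Phosphoinositides mark the stages of the pit. Of 4 genes for enzymes that make or remove them 2 rose and 1 fell, against 11.1% and 10.2% of all tested genes. Synj1, the synaptic phosphatase that clears PI(4,5)P2 as the vesicle uncoats, had signals of 3353 and 3251 in stressed rats and 2826 and 2882 in controls. It rose by 0.21 on the log2 scale (SE 0.04, limma adjusted p = 0.0126). Dropping stressed replicate 1, control replicate 1 or control replicate 2 raised the adjusted p to 0.0696, 0.0778 or 0.0628. Synj2 gave 0.03 and did not pass.

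The class II PI 3-kinase genes differed in direction. Pik3c2b had signals of 121.6 and 122.4 in stressed rats and 50.3 and 76.5 in controls. It rose by 0.98 (SE 0.22, limma adjusted p = 0.0165), again with both control signals under 100, and the adjusted p was 0.07 without control replicate 1. Pik3c2a, whose product makes the PI(3,4)P2 needed for late pit maturation and binds clathrin, was read by 2 probe sets. The brighter one had 569.7 and 619.7 against 817.5 and 810.3, a fall to a log2 fold change of -0.45 (SE 0.06, limma adjusted p = 0.00268) that held without any 1 array. The other had 317.8 and 387.2 against 354.7 and 261.7. On it the groups overlapped, with a log2 fold change of 0.20 (limma adjusted p = 0.38).

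Uncoating was read by Dnajc6, the gene of auxilin, which brings the chaperone Hsc70 to the coat. Its 2 probe sets gave 0.12 (limma adjusted p = 0.0864) and -0.01. After quantile normalization the first passed, at 0.13 (limma adjusted p = 0.0228).

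The genes of sorting after uptake held the largest fall among the members and also a gene with probe sets called both ways. Of the 12 probe sets of 7 retromer, sorting nexin and recycling genes, 1 rose and 2 fell, against 12% and 11.8% of all tested probe sets. All 3 belonged to Snx27, the sorting nexin with a PDZ domain that returns glutamate receptors and other cargo from endosomes to the surface with retromer. On the probe set numbered Snx27 (3) in the plots, the signals were 514.1 and 520.4 on the stressed arrays and 980.6 and 969.6 on the control arrays. The replicates were close to each other and the groups far apart, at a log2 fold change of -0.91 (SE 0.06, limma adjusted p = 6.54e-05), the smallest p of any member. On Snx27 (2) the signals were 170.3 and 137.0 against 306.8 and 391.1. This was the largest fall among the members, -1.18 (SE 0.15, limma adjusted p = 0.00189), with controls 2.27-fold higher. Both falls held without any 1 array.

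The brightest Snx27 probe set went the other way. On Snx27 (1) the signals were 1099 and 1122 on the stressed arrays and 932.5 and 954.0 on the control arrays, a log2 fold change of 0.24 (SE 0.05, limma adjusted p = 0.014). This rise was less stable than the falls, and dropping stressed replicate 2, control replicate 1 or control replicate 2 raised its adjusted p to 0.0582, 0.078 or 0.0626. On Snx27 (4) the signals were 200.8 and 236.5 against 284.6 and 248.3. There the stressed arrays were lower without overlap, but the log2 fold change of -0.29 did not pass (limma adjusted p = 0.129). Which part of the transcript each probe set reads was not analysed here. Calls in opposite directions were found for 96 of the 1871 genes with several tested probe sets (5.13%), and 744 (39.8%) had some probe sets called and others not.

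**Figure D3:**
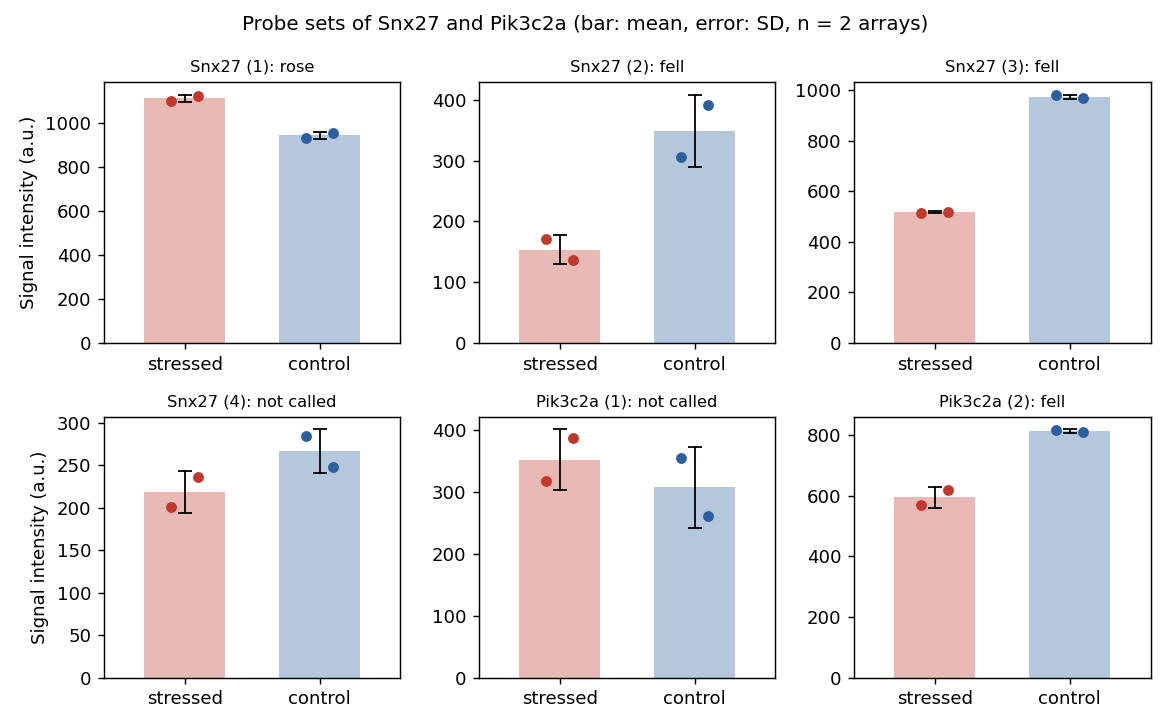
Signal intensity (linear axis, arbitrary units) of every tested probe set of Snx27 and Pik3c2a, 1 panel each, with points for single arrays, bars for the group mean and error bars for the SD of 2 arrays. For Snx27, 1 probe set is higher and 3 are lower in stressed rats, of which 2 passed the adjusted threshold.

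The other listed retromer, nexin and recycling genes did not pass. Vps35, the backbone of the cargo-binding trimer, gave a log2 fold change of -0.08 (95% interval -0.19 to 0.02). Vps26a, which links the trimer to Snx27, gave 0.11 and -0.25 at its 2 probe sets, the latter with a limma adjusted p of 0.0555. The membrane-bending nexins gave -0.11 for Snx1 and -0.35 for Snx2 (limma adjusted p = 0.06), and Snx2 fell without control replicate 2 (-0.53, adjusted p = 0.027). Ehd1, an ATPase of recycling endosomes, gave 0.26 (limma adjusted p = 0.0567) and 0.15, and its paralog Ehd3 gave 0.11. Stau2, an RNA-binding protein of dendritic granules that is on the list but is not a coat protein, gave -0.23 to -0.02 at 4 probe sets, and none passed. The lowest of these passed without stressed replicate 1 (-0.34, limma adjusted p = 0.0274).

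**Figure D4:**
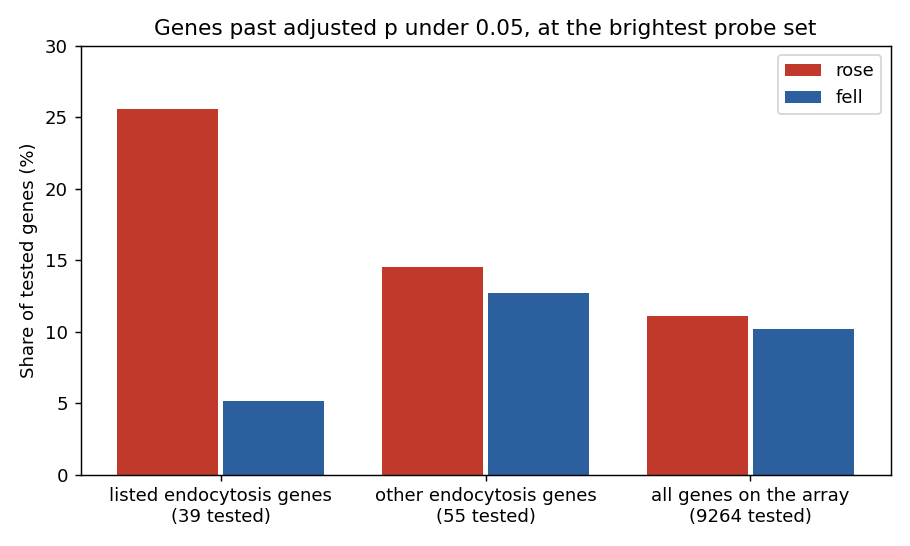
Share in percent of genes that rose or fell at a limma adjusted p under 0.05, each gene at its brightest tested probe set, for the 39 endocytosis members, the 55 other endocytosis genes and all 9264 tested genes. Rises make up 25.6% of the members, 14.5% of the other endocytosis genes and 11.1% of all genes, and falls 5.13%, 12.7% and 10.2%. The member rises count Snx27, of which 2 other probe sets fell. They also count Dnm2 and Pik3c2b, whose control signals were below 100.

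A separate list held 61 other endocytosis genes, and its difference from the members was not tested. Of the 55 that were tested, 8 rose (14.5%), 7 fell (12.7%) and 40 did not pass, with a median log2 fold change of 0.06. Without control replicate 1 the calls were 5 and 2, and without control replicate 2 they were 4 and 5. The rises were Eps15l1 (0.50), a paralog of Eps15, Hip1 (0.45), which ties clathrin to actin, Fcho2 (0.34), which starts pits, Ston2 (0.35), the stonin that sorts synaptotagmin, Reps2 (0.22), Pip5k1c (0.27), the synaptic PI(4,5)P2 kinase, Ap3b1 (0.59) and the caveolin gene Cav1 (0.31). The falls were led by Sgip1, a neuronal relative of the FCHo proteins. Its signals were 263.2 and 286.3 on the stressed arrays and 535.8 and 503.1 on the control arrays, a log2 fold change of -0.92 (limma adjusted p = 0.000357). Small sigma subunits of adaptors made up 3 of the other falls, Ap1s1 (-0.32), Ap1s2 (-0.21) and Ap3s1 (-0.18). The sigma subunit gene Ap3s2 (-0.02) and the member Ap2s1 (-0.11) did not pass. The rest of the falls were Sh3glb2 (-0.32), the sorting nexin gene Snx18 (-0.29) and the retromer gene Vps29 (-0.15). All these calls were made at the brightest tested probe set of a gene. Hip1 rose on 1 of 4 tested probe sets and Cav1 on 1 of 2. Sgip1, Ap1s1, Ap1s2 and Ap3s1 each fell on 1 of 2. Eea1 did not pass at its brightest probe set (0.23) but fell on the other of 2.

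The promoters of the members are given beside those of other rat genes, because several coat genes rose. RefSeq windows of 300 bases (250 before to 50 after the gene start, build GRCr8) were given for 37 of the 42 members and 33469 windows in all, and for 8 of the 12 genes with a call. The windows of Ap1b1 and Epn1, whose rises held without any 1 array, and of Pik3c2a, whose fall did, are shown with those of Cltc, the coat's main protein, and Epn2, a gene that rose and whose window held none of the motifs searched. They are written 5′ to 3′ on the strand of the gene, and capitals mark matches on either strand. The GC box was searched as GGGCGG and the CCAAT box as its own letters. For the CRE core the letters were TGACG, and for the ETS core CCGGAAG. The matches in these windows do not overlap each other. The window of Epn2 had the lowest G and C content of the members' windows, 46.3%. Whether its annotated start is the one used in the hippocampus was not tested, so its lack of motifs describes this window only.
Cltc (chr10:72070642-72070941, minus strand): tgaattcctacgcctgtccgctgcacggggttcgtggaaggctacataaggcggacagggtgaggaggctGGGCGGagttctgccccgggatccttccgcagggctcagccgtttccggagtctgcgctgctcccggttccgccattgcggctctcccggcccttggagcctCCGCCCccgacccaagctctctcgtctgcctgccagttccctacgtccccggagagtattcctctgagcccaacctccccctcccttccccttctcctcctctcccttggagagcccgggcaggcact
Ap1b1 (chr14:84093322-84093621, plus strand): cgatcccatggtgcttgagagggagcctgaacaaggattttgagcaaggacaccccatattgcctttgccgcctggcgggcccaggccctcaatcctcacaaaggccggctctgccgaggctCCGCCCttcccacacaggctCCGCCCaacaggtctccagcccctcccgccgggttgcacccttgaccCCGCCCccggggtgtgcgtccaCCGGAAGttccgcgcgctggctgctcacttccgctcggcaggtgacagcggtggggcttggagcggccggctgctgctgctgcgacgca
Epn1 (chr1:77789362-77789661, minus strand): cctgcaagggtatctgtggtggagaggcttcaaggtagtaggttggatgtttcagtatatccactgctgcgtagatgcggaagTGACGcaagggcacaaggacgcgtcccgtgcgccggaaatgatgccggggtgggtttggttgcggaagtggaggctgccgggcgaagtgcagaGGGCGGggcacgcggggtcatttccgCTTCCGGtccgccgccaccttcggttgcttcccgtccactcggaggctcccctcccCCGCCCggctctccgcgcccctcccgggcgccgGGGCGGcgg
Epn2 (chr10:46726910-46727209, minus strand): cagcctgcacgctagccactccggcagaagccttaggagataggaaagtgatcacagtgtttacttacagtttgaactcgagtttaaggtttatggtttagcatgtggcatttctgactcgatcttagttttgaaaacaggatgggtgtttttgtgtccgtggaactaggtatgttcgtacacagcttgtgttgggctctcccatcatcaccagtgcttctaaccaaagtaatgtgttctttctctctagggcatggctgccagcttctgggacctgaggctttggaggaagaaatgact
Pik3c2a (chr1:180117724-180118023, minus strand): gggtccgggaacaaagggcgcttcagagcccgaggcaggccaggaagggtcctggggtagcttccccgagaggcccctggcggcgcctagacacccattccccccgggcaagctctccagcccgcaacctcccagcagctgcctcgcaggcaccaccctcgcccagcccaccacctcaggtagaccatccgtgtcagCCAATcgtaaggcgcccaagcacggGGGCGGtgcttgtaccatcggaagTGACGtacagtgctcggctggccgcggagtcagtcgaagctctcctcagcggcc

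Of the 8 called genes with a window 6 held a GC box, among them Pik3c2a, which fell, while Epn2 and Synj1, which rose, held none. Over the members 28 of 37 windows (75.7%) held a GC box, against 33.1% of all windows. Each member gave a single window. The windows in all were not limited to a single window per gene or to genes tested on the array, so the sets are unlike. The CRE core was in 17 (45.9% against 21.2%), the ETS core in 6 (16.2% against 8.75%) and the CCAAT box in 11 (29.7% against 37.5%). The TATA box (TATAAA) was in 3 (8.11% against 14.2%) and the E box (CACGTG) in 2 (5.41% against 6.42%). The members' windows were rich in G and C, with a median of 64.3% against 51.7% over all windows. These matches are descriptions of letters, and binding of any factor was not measured.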

How the data were processed

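The authors hybridised pooled hippocampal RNA to Rat Genome 230 2.0 arrays and deposited GCOS signal intensity values, linear and scaled per array to a target of 300. No scanner files were used here. The 57 control probe sets were left out, signals of 0 were set to 0.1, and log2 values of the 14791 probe sets that reached 100 on 2 or more arrays were fitted in limma 3.58.1 (R 4.3.3) by group, with an intensity trend, 7.73 degrees of freedom and Benjamini-Hochberg adjustment over all of them. The study used an unpaired t-test, and an exact permutation of 2 against 2 arrays cannot give a two-sided p below 0.333. Of 31042 probe sets, 20826 had 1 gene symbol, 436 several and 9780 none. Array values were printed for called probe sets changed by at least 0.5 on the log2 scale, for genes called in part or in opposite directions, and, beyond that rule, for the other called members and Dnm1 and Sgip1, chosen after their values were seen. Members and lists were chosen with earlier results of these data known. Same-numbered arrays deviated with r = -0.11, so numbers were not taken as pairs. Scripts were tested on simulated data. Levels were not compared between probe sets. The number of arrays limits the precision.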

Additional observations from a re-analysis of the deposited data

How the results depend on the processing

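Of the 14 member calls, 6 (Ap1b1, Epn1, Pacsin1, the brighter Pik3c2a probe set and both falling Snx27 probe sets) held in every limma setting and each removal of 1 array. Fitted without the intensity trend, 7 calls were lost, leaving 3 member probe sets higher and 4 lower (genes 3 and 2), other endocytosis genes 4 higher and 2 lower, and the whole array 1000 and 1147, against 1771 and 1744. The methods' t-test on log2 signals gave unadjusted p-values under 0.05 for 7 higher and 4 lower member probe sets, and on linear signals for 10 and 4. After Benjamini-Hochberg adjustment each t-test called 0 member probe sets, 0 member genes and 0 other endocytosis genes in either direction, and at the 2-fold threshold each had 0 higher. Over the array they called 4 higher and 14 lower (log2) and 4 and 12 (linear). Leaving out 1 array gave 4 to 9 member probe sets higher and 4 to 5 lower, 4 to 9 member genes higher and 2 to 3 lower, and 4 to 7 other endocytosis genes higher and 2 to 6 lower, with 650 to 1148 higher and 791 to 1342 lower on the array. Median centring gave 7 lower member probe sets and 5 lower genes, adding Itsn2, Vps26a and Snx2, against 1906 lower on the array. With no filter on dim probe sets, 5 other endocytosis genes rose and 3 fell, against 1223 and 1341 probe sets on the array. At a minimum signal of 200, 8 member probe sets rose and 4 fell, and 0 were higher at 2-fold. An offset of 50 left 0 higher and 0 lower at 2-fold. Quantile normalization gave 11 and 4, adding Dnajc6, and the mean of a gene's probe sets 9 and 2 genes. With the replicate number as a block, 10 member probe sets rose and 5 fell, Snx2 being added, and 5 other endocytosis genes rose and 4 fell. On the array 1281 probe sets rose and 1391 fell in that fit. The crossed pairing, chosen after seeing the data, gave 13 member probe sets higher and 4 lower, adding Dnm1, Dnajc6 and Ehd1. On the array it gave 2069 and 1970. No called value changed sign, and 11 sign changes were among values called in neither fit. The causes were not tested.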
